A study of Mus musculus with 20 samples.

Results

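The peroxisomal beta-oxidation enzymes are described here through 8 genes, Ehhadh, Hsd17b4, Acaa1a, Acaa1b, Scp2, Ech1, Eci2 and Decr2, which were chosen by symbol from the 45802 gene entries of a table of fetal mouse liver RNA. All 8 had a value in each of 20 libraries, and all 8 passed the filter on low values that left 11807 genes for testing. The livers were taken at E17.5 from 5 groups of 4 fetuses (2 female and 2 male each), whose dams had been fasted for 24 h, and the strain is given as C57BL/6. In the HetDam_HetFetus group the dam and the fetus were both heterozygous for Ppara, the gene of the fatty acid receptor PPAR-alpha. In the KODam_HetFetus group a Ppara knockout dam carried heterozygous fetuses, and in the KODam_KOFetus group a Ppara knockout dam carried Ppara knockout fetuses. In the FloxDam_FloxFetus group the dam and the fetus carried floxed Cpt2 (Cpt2f/f), an allele that is left intact without Cre, and the titles call this group wild type. In the Cpt2LKODam_FloxFetus group the dam was Cpt2f/f with Albumin-Cre, so that Cpt2, the inner mitochondrial enzyme of the carnitine shuttle, was deleted where the albumin promoter drives Cre, which is the hepatocyte, and the fetus was Cpt2f/f. The heterozygous controls carry a Ppara knockout allele themselves, so no Ppara group here is wild type at that gene, and all 5 groups share the fast.

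Peroxisomes shorten fatty acids that mitochondria handle poorly, such as very-long-chain, dicarboxylic and branched-chain acids and the side chains of bile acid precursors. An acyl-CoA oxidase passes electrons to oxygen and makes hydrogen peroxide, a bifunctional enzyme then adds water and oxidises the product, and a thiolase splits off acetyl-CoA or propionyl-CoA. Unsaturated fatty acids also need isomerases and a reductase that move or remove double bonds. In rodent liver several of these genes are known targets of PPAR-alpha, which fatty acids and fibrate drugs activate, and Ehhadh and Acaa1b are among those used as its readouts.

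Values are given on the log2 scale of the deposited table, in which quantile normalization had been applied. What was logged is not stated, so whether it is per length is unknown, and levels are compared between groups within a gene and not between genes. Depth is unknown, and 23334 to 26255 genes had a value in a library. Ppara transcript was 2.26 ± 0.27 (SD, n = 4) in the KODam_KOFetus livers, 2.56 ± 0.68 in the KODam_HetFetus livers and 3.13 ± 0.28 in the HetDam_HetFetus livers. The KODam_HetFetus range, 1.81 to 3.22, overlapped that of KODam_KOFetus, 1.87 to 2.48. The deleted part may lie outside the reads that give this value, so it does not check the genotype labels. All 10 hepatocyte markers were tested, and their summed linear level spanned 7.474e+04 to 1.137e+05 in FloxDam_FloxFetus livers, 8.365e+04 to 8.83e+04 in Cpt2LKODam_FloxFetus livers, 8.144e+04 to 1.403e+05 in HetDam_HetFetus livers, 7.599e+04 to 1.051e+05 in KODam_HetFetus livers and 7.518e+04 to 1.008e+05 in KODam_KOFetus livers. Those ranges overlap between all groups. The mean log2 value of the 9 erythroid markers was 10.766 to 11.001 in HetDam_HetFetus livers against 11.110 to 11.288 in KODam_HetFetus and 11.181 to 11.503 in KODam_KOFetus livers. By that measure every liver from Ppara knockout dams lay above every HetDam_HetFetus liver. Their summed linear level overlapped, at 1.704e+05 to 2.183e+05 in HetDam_HetFetus, 2.154e+05 to 2.314e+05 in KODam_HetFetus and 2.167e+05 to 2.324e+05 in KODam_KOFetus livers. The summed linear level of the 8 neutrophil and myeloid progenitor markers was 5270 to 8075 in HetDam_HetFetus livers, 3052 to 5201 in KODam_HetFetus livers, below the former without overlap, and 3693 to 6383 in KODam_KOFetus livers, which overlap both. The part of these cell types in the differences with maternal Ppara loss was not tested. In 5 libraries the mean log2 value of the skeletal muscle, pancreas or intestine markers was above 1. They are HetDam_HetFetus replicates 1 (intestine, 1.33) and 4 (muscle, 2.98), KODam_HetFetus replicate 4 (pancreas, 1.38), KODam_KOFetus replicate 2 (muscle, 3.40) and Cpt2LKODam_FloxFetus replicate 2 (pancreas, 4.80). Fetuses that share a number in their description are presumed littermates, namely replicates 1 and 2 of KODam_HetFetus, replicates 1 and 2 of KODam_KOFetus and replicates 3 and 4 of FloxDam_FloxFetus. No presumed litter was shared between the groups compared, so a genotype and the dams and litters that carried it cannot be told apart, and p-values measure the spread between these fetuses. The p-values of the main fit take no account of litter, although with litter as a random block the consensus correlation was 0.57.

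Knockout fetuses in knockout dams had the lowest mean of all 5 groups for all 8 enzymes. Their libraries did not overlap those of the group next above for any enzyme but Scp2. The shares of all genes that were lowest in this group, with or without overlap, were not computed, so these counts stand without a background. Ehhadh was highest in heterozygous fetuses of Ppara knockout dams and next highest in fetuses of liver Cpt2 knockout dams. Scp2 had its highest mean in FloxDam_FloxFetus, and the other 6 had theirs in Cpt2LKODam_FloxFetus. For Scp2 and for each of those 6, the libraries overlapped those of the group with the next highest mean. Hsd17b4, for example, had means of 5.2971 in Cpt2LKODam_FloxFetus and 5.2961 in KODam_HetFetus. The group means spanned 4.63 for Ehhadh, 4.49 for Acaa1b and 3.15 for Decr2, but 0.79 for Scp2, on the log2 scale. The pooled SD within groups ran from 0.18 for Ech1 to 0.44 for Acaa1b.

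**Figure D1:**
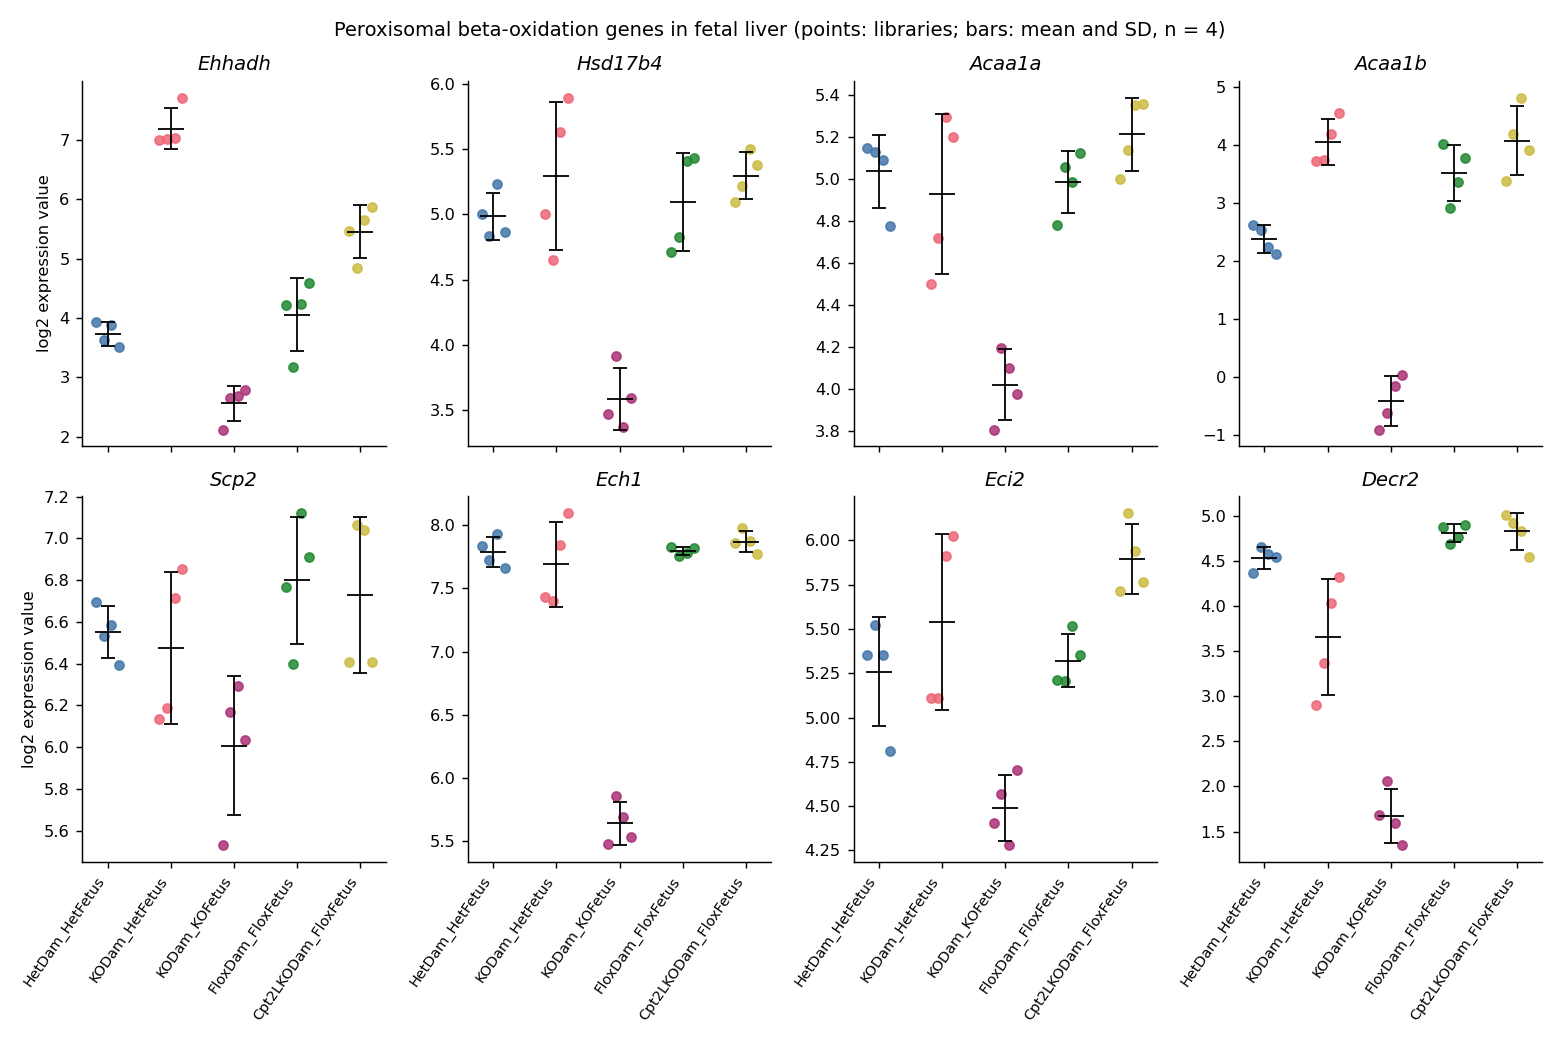
Log2 values of the 8 enzymes in the 20 fetal livers, by group, with each library as a point and the mean and SD of 4 fetuses as bars. The KODam_KOFetus mean is the lowest in every panel, and Ehhadh is highest in KODam_HetFetus, at 7.00 to 7.71.

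Ehhadh is the L-bifunctional enzyme, which carries out the hydration and dehydrogenation steps and is known for its part in the breakdown of dicarboxylic acids. Its gene lies at chr16:21761285-21787834 on the minus strand (GRCm38.p6). It was 3.93, 3.63, 3.89 and 3.50 in the HetDam_HetFetus livers and 7.00, 7.01, 7.04 and 7.71 in the KODam_HetFetus livers. In the KODam_KOFetus livers the values were 2.12, 2.64, 2.69 and 2.79. The groups did not overlap in either direction: every heterozygous fetus of a knockout dam lay above every heterozygous fetus of a heterozygous dam, and every knockout fetus lay below both. With Ppara lost in the dam, Ehhadh rose by 3.45 ± 0.26 (SE; 95% interval 2.90 to 4.00; 10.96-fold; adjusted p = 5.92e-07), the smallest p of the 11800 genes tested. With Ppara lost in the fetus as well, it fell by 4.63 ± 0.26 against KODam_HetFetus (24.8-fold; adjusted p = 1.66e-09), and it fell by 1.18 ± 0.26 against HetDam_HetFetus (adjusted p = 0.00423). In bulk tissue, fewer cells of a type and less RNA per cell cannot be told apart, here or in the results that follow.

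Ehhadh was also high where the dam's liver lacked Cpt2, although this difference did not pass the test across all genes. Its values were 4.21, 3.17, 4.23 and 4.60 in FloxDam_FloxFetus and 5.47, 4.84, 5.64 and 5.87 in Cpt2LKODam_FloxFetus. Every fetus of a Cpt2 knockout dam lay above every control. The difference was 1.40 ± 0.26 (95% interval 0.85 to 1.95; 2.64-fold; unadjusted p = 3.63e-05, adjusted p = 0.166). The maternal Ppara difference exceeded the maternal Cpt2 difference by 2.05 ± 0.37 (95% interval 1.27 to 2.83; adjusted p = 0.0992), which did not pass either. That last value passed without FloxDam_FloxFetus replicate 2 (2.34, adjusted p = 0.00607), the lowest control, and without Cpt2LKODam_FloxFetus replicate 4 (2.19, adjusted p = 0.0291). The 250 bases before the Ehhadh start, from RefSeq on GRCm38.p6 (chr16:21787835-21788084, minus strand, 5′ to 3′), are shown because Ehhadh moved most. Capitals mark a CCAAT box in either orientation.
Ehhadh: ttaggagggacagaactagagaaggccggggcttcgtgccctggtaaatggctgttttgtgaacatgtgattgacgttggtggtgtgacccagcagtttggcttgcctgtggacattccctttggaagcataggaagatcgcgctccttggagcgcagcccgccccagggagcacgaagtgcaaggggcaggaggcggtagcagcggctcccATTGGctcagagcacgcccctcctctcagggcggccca

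Hsd17b4, the D-bifunctional enzyme, carries out the same steps for very-long-chain and branched-chain acids and bile acid precursors. Its values were 5.00, 4.83, 5.23 and 4.87 in HetDam_HetFetus, 5.01, 4.65, 5.63 and 5.90 in KODam_HetFetus, and 3.47, 3.92, 3.37 and 3.59 in KODam_KOFetus. The knockout fetuses lay below both heterozygous groups, which overlapped each other. It fell by 1.71 ± 0.23 with the fetal knockout (adjusted p = 0.000201), and against HetDam_HetFetus it fell by 1.40 ± 0.23 (adjusted p = 0.000572). With the maternal Ppara knockout the difference was 0.31 (95% interval -0.16 to 0.78; adjusted p = 0.283), and with the maternal Cpt2 knockout it was 0.20 (95% interval -0.27 to 0.67; adjusted p = 0.773). Neither passed. Hsd17b4 lies on chromosome 18 and its sequence is not shown.

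The difference between the bifunctional enzymes varied from group to group. Within a library, the log2 value of Ehhadh minus that of Hsd17b4 was -1.25 ± 0.14 (SD, n = 4) in HetDam_HetFetus, 1.89 ± 0.40 in KODam_HetFetus and -1.03 ± 0.33 in KODam_KOFetus. It was -1.04 ± 0.49 in FloxDam_FloxFetus and 0.16 ± 0.38 in Cpt2LKODam_FloxFetus. KODam_HetFetus, at 1.40 to 2.36, lay above every other library, and Cpt2LKODam_FloxFetus, at -0.37 to 0.49, lay above the remaining 3 groups. These within-library differences, and those for the pairs described next, are a description with no test, since the pairs were chosen after their values were seen. Their size within a library is not read as a ratio of transcripts, because the values may not be per length.

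**Figure D2:**
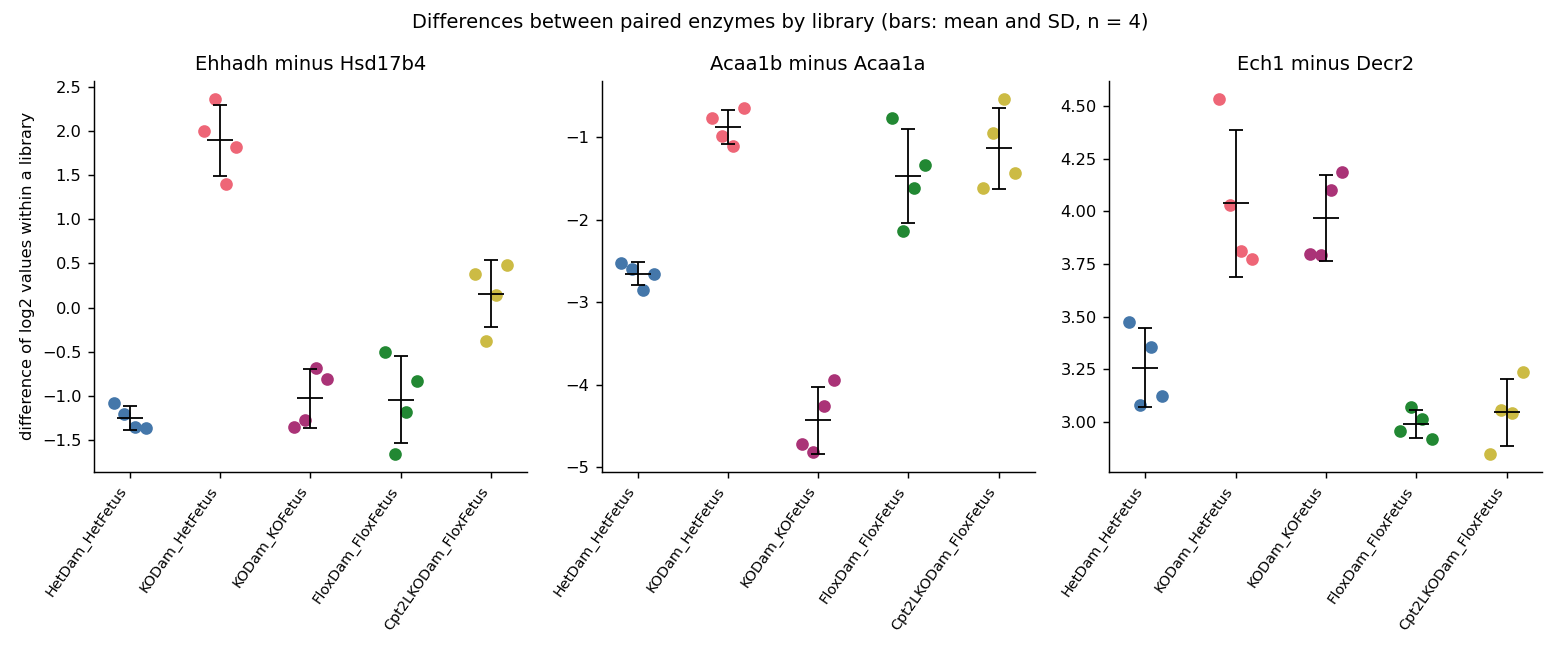
Difference of log2 values within a library for Ehhadh minus Hsd17b4, Acaa1b minus Acaa1a and Ech1 minus Decr2, by group, with libraries as points and the mean and SD of 4 as bars. In the Ehhadh panel KODam_HetFetus lies at 1.40 to 2.36, above all other groups, and in the Acaa1b panel KODam_KOFetus lies at -4.81 to -3.95, below all others.

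The straight-chain thiolases, which split the shortened chain from acetyl-CoA, are encoded in the mouse by Acaa1a (chr9:119341028-119350296, plus strand) and Acaa1b (chr9:119148043-119157093, minus strand). In rodent liver Acaa1b is the form known to respond to PPAR-alpha activators. The longest reading frames of their GENCODE transcripts were both 1275 bases long and matched at 1231 positions, an identity of 96.5%. Of 1201 stretches of 75 bases, the read length, 358 (29.8%) were the same in both genes, so how the authors' counting divided such reads is uncertain for both. The span of Acaa1a also shares bases with Slc22a14 and Myd88, and that of Acaa1b with Dlec1, each on the opposite strand. Whether reads were counted by strand was not given. The stretch from base 244 to base 318 of the frame is shown, with its 11 differing bases in capitals, as an example of where a read can be told apart.
Acaa1a: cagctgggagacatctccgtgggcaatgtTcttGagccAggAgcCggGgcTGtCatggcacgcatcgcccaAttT
Acaa1b: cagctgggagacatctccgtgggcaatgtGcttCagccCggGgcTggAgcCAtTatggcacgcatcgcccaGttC

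Acaa1b was 2.63, 2.54, 2.25 and 2.12 in HetDam_HetFetus, 3.73, 3.74, 4.19 and 4.55 in KODam_HetFetus, and -0.91, -0.62, -0.15 and 0.03 in KODam_KOFetus. The 3 groups did not overlap. Acaa1b rose by 1.67 ± 0.29 with the maternal Ppara knockout (3.18-fold; adjusted p = 0.000404), and it fell by 4.46 ± 0.29 with the fetal knockout (22.1-fold; adjusted p = 6.57e-09). Against HetDam_HetFetus it fell by 2.79 ± 0.29 in knockout fetuses (adjusted p = 1.05e-05). The KODam_KOFetus values lie near the linear value of 1 used by the filter on low values, so the sizes of both falls are uncertain. The floxed controls were 4.02, 2.92, 3.37 and 3.78, and fetuses of Cpt2 knockout dams were 3.39, 4.18, 4.82 and 3.93. These overlapped, with a difference of 0.56 (95% interval -0.04 to 1.16; adjusted p = 0.480). The control groups themselves differed by -1.14 ± 0.29 (HetDam_HetFetus minus FloxDam_FloxFetus; 95% interval -1.74 to -0.54), with no overlap, but this did not pass across all genes (adjusted p = 0.109).

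The Acaa1a differences were smaller. Its values were 5.15, 5.13, 5.09 and 4.78 in HetDam_HetFetus, 4.50, 4.72, 5.30 and 5.20 in KODam_HetFetus, and 3.81, 4.20, 4.10 and 3.98 in KODam_KOFetus. The knockout fetuses lay below both heterozygous groups, which overlapped. It fell by 0.91 ± 0.16 with the fetal knockout (adjusted p = 0.00302) and by 1.01 ± 0.16 against HetDam_HetFetus (adjusted p = 0.000430). The fetal call was lost without the 5 libraries with markers of other tissues (-0.88, adjusted p = 0.0519) and in a fit of the compared groups alone (adjusted p = 0.0952). With the maternal Ppara knockout the difference was -0.11 (95% interval -0.44 to 0.22; adjusted p = 0.612), and with the maternal Cpt2 knockout it was 0.22 (95% interval -0.10 to 0.55; adjusted p = 0.608). The log2 value of Acaa1b minus that of Acaa1a was -2.65 ± 0.14 in HetDam_HetFetus, -0.88 ± 0.21 in KODam_HetFetus and -4.43 ± 0.41 in KODam_KOFetus livers. It was -1.46 ± 0.57 with floxed dams and -1.13 ± 0.49 with Cpt2 knockout dams. The Ppara groups did not overlap in this difference, and the floxed groups did. The 250 bases before each start (RefSeq, GRCm38.p6; Acaa1a chr9:119341044-119341293, plus strand, and Acaa1b chr9:119157094-119157343, minus strand) are shown 5′ to 3′. The Acaa1a window precedes the transcript start that RefSeq's promoter table uses, which lies inside the span of the gene given above. They are shown because the differences of the genes were unequal while their reading frames are nearly alike. Capitals again mark CCAAT or its reverse complement ATTGG.
Acaa1a: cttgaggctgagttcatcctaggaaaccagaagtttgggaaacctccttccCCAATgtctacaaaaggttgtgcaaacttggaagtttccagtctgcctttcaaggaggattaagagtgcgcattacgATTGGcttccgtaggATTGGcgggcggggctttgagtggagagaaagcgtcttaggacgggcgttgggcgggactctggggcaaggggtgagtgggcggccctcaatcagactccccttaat
Acaa1b: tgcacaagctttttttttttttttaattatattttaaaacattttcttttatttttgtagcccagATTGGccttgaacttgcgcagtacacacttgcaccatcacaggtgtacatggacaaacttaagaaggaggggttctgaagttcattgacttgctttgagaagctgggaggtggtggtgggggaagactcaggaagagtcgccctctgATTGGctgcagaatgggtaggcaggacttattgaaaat

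Scp2 encodes the thiolase for branched-chain acids and bile acid precursors, and also the shorter sterol carrier protein from the same gene (chr4:108043830-108144971, minus strand). Reads of both products fall on its row, and it shares bases with Podn on the same strand. It was 6.40 to 7.12 in FloxDam_FloxFetus, 6.41 to 7.07 in Cpt2LKODam_FloxFetus, 6.39 to 6.70 in HetDam_HetFetus, 6.14 to 6.85 in KODam_HetFetus and 5.53 to 6.29 in KODam_KOFetus. Of the Ppara groups, only the knockout fetuses lay apart from HetDam_HetFetus, with a difference of -0.55 ± 0.21 (95% interval -0.98 to -0.11; adjusted p = 0.0600). Against KODam_HetFetus the difference was -0.47 ± 0.21 (95% interval -0.90 to -0.04; adjusted p = 0.441). Scp2 passed the test in none of the 6 comparisons, though the first of these values passed under several other settings.

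Ech1, a dienoyl-CoA isomerase found in peroxisomes and mitochondria, was lower in knockout fetuses than in heterozygous ones. It was 7.84, 7.73, 7.93 and 7.66 in HetDam_HetFetus, 7.43, 7.40, 7.84 and 8.10 in KODam_HetFetus, and 5.48, 5.86, 5.70 and 5.54 in KODam_KOFetus. Every knockout fetus lay below every heterozygous fetus. Ech1 fell by 2.05 ± 0.13 with the fetal knockout (4.14-fold; adjusted p = 5.70e-09) and by 2.14 ± 0.13 against HetDam_HetFetus (adjusted p = 5.10e-09). The maternal Ppara difference was -0.09 (95% interval -0.37 to 0.18; adjusted p = 0.587) and the maternal Cpt2 difference was 0.08 (95% interval -0.20 to 0.35; adjusted p = 0.859). Neither interval reaches the size of the difference seen with fetal genotype.

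Eci2, an enoyl-CoA isomerase that moves a double bond into the position the pathway needs, was 5.35, 5.52, 5.35 and 4.81 in HetDam_HetFetus, 5.11, 5.11, 5.91 and 6.03 in KODam_HetFetus, and 4.40, 4.57, 4.28 and 4.71 in KODam_KOFetus. Knockout fetuses were below both heterozygous groups, which overlapped. It fell by 1.05 ± 0.20 with the fetal knockout (adjusted p = 0.00647) and by 0.77 ± 0.20 against HetDam_HetFetus (adjusted p = 0.00926). The fetal call was lost without the 5 libraries with other-tissue markers (-0.91, adjusted p = 0.0568) and in a fit of the compared groups alone (adjusted p = 0.122). In FloxDam_FloxFetus it was 5.21, 5.21, 5.52 and 5.35, and in Cpt2LKODam_FloxFetus 5.72, 6.15, 5.94 and 5.77. The latter were all higher, by 0.57 ± 0.20 (95% interval 0.16 to 0.98), which did not pass (adjusted p = 0.373).

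Decr2 is the peroxisomal dienoyl-CoA reductase, which removes double bonds at positions that would otherwise stop the pathway. Its values were 4.36, 4.65, 4.57 and 4.54 in HetDam_HetFetus, 2.90, 3.37, 4.03 and 4.32 in KODam_HetFetus, and 1.68, 2.06, 1.60 and 1.35 in KODam_KOFetus. The 3 groups did not overlap, and they fell in that order. Unlike Ehhadh and Acaa1b, Decr2 fell by 0.87 ± 0.22 with the maternal Ppara knockout (adjusted p = 0.00507). From KODam_HetFetus to KODam_KOFetus it fell by 1.98 ± 0.22 (3.95-fold; adjusted p = 2.07e-05), and the full difference from HetDam_HetFetus was -2.86 ± 0.22 (adjusted p = 2.15e-07). The maternal call did not hold without the presumed littermates of KODam_HetFetus, replicates 1 and 2, which are the lowest of that group (-0.35, adjusted p = 0.140). In the floxed groups Decr2 was 4.68 to 4.90 in controls and 4.54 to 5.01 with maternal Cpt2 loss, a difference of 0.02 (95% interval -0.44 to 0.48; adjusted p = 0.984). The log2 value of Ech1 minus that of Decr2 was 3.08 to 3.47 in HetDam_HetFetus and 3.78 to 4.53 in KODam_HetFetus, with no overlap, and 3.79 to 4.19 in KODam_KOFetus. The ranges of the groups with knockout dams overlapped.

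Counted over the 8 enzymes, 2 rose with the maternal Ppara knockout (Ehhadh and Acaa1b) and 1 fell (Decr2), and those were also the ones whose libraries did not overlap. Of all genes tested, 26.4% were called higher and 12.6% lower, and 24.4% and 11.8% did not overlap in those directions, so 3 of 8 is near the 39.0% called in all. The median difference of the enzymes was 0.10, against 0.14 over all genes. With the fetal knockout 7 of 8 fell, and Scp2 was the one not called, where 0.822% of all genes were called (0.796% lower and 0.0254% higher). The same 7 did not overlap, against 4.04% of all genes lower and 1.75% higher without overlap, and the median was -1.85 against -0.01 over all genes. With both losses 7 of 8 were called lower and all 8 did not overlap, against 7.31% and 7.29% of all genes (17.4% were called higher, 19.1% were higher without overlap, and 24.7% were called in either direction), and the median was -1.29 against 0.14. These 3 comparisons share libraries, so each is given by its own values. Under trimmed-mean scaling the all-gene median was 0.02 with the maternal knockout and 0.02 with both losses. The genes called higher and lower were then 2212 and 2232 in place of 3117 and 1483 with the maternal knockout, and 1152 and 1385 in place of 2053 and 863 with both losses, while the calls of the enzymes other than Scp2 held.

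The maternal Cpt2 knockout gave no call among the enzymes and 0% among the 11805 genes tested with limma. At an unadjusted p under 0.05 there were 2 enzymes, Ehhadh and Eci2, both higher, and 1311 genes (11.1%). Those 2 were also the enzymes without overlap, where 3.25% of all genes were higher and 2.86% lower without overlap. The median difference was 0.21, against -0.01 over all genes. For the difference of the maternal effects there was no call among the enzymes or in all (0%), but without Cpt2LKODam_FloxFetus replicate 4 there were 343 genes higher and 78 lower over all, Ehhadh among the former. With all libraries, at an unadjusted p under 0.05 there were 3 enzymes (Ehhadh and Acaa1b higher, Decr2 lower) among 2343 genes (19.9%). Between the control groups no enzyme was called, where 0.136% of genes were (0.0593% higher and 0.0763% lower), and 1 enzyme, Acaa1b, had an unadjusted p under 0.05, among 1946 genes (16.5%). Acaa1b and Decr2 were the 2 without overlap there, both lower in HetDam_HetFetus, as were 9.70% of all genes, with 0.466% higher.

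**Figure D3:**
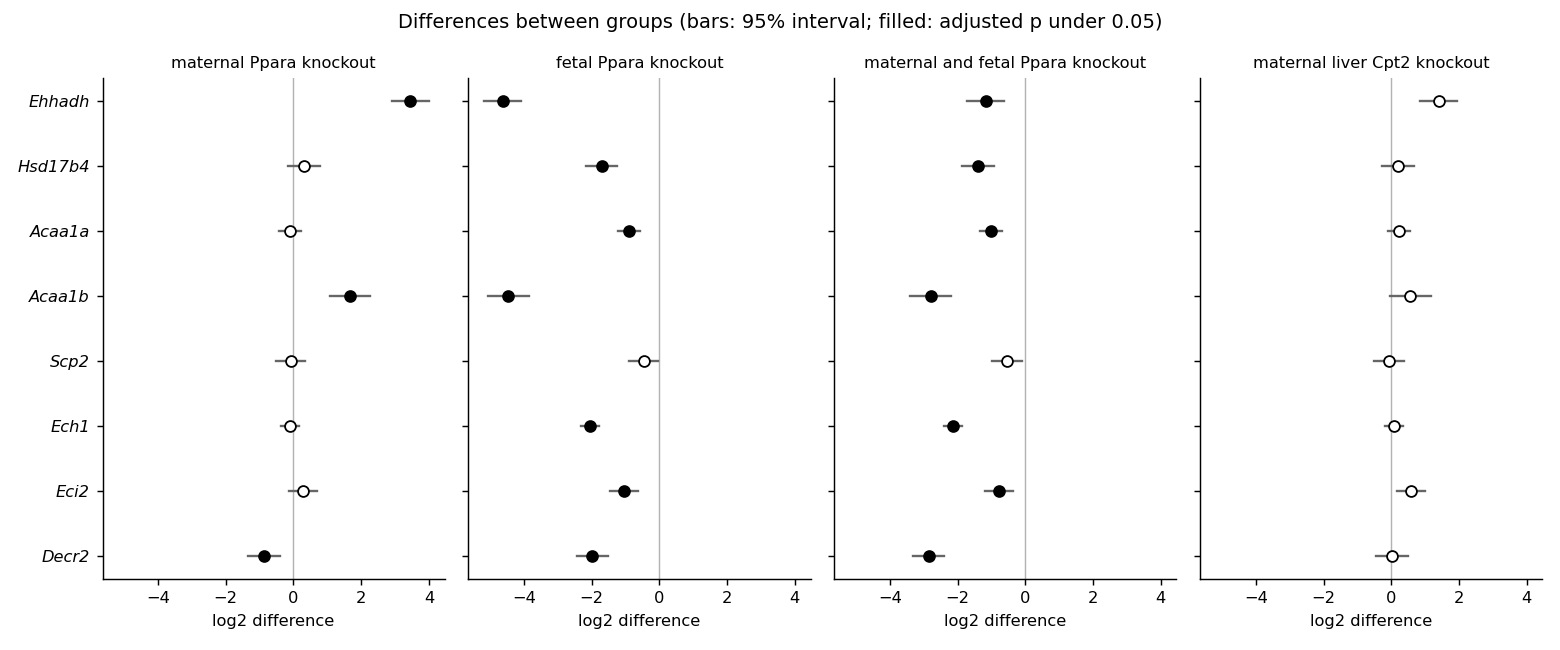
Log2 differences of the 8 enzymes in 4 comparisons, with points (filled where called) as limma estimates and bars as 95% intervals. Ehhadh and Acaa1b lie above 0 for the maternal Ppara knockout and far below 0 for the fetal knockout, at -4.63 and -4.46, and Scp2 lies nearest 0 for the fetal knockout at -0.47.

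Heterozygous fetuses of knockout dams differed by presumed litter. The presumed littermates, replicates 1 and 2, were below both other fetuses of KODam_HetFetus for all 8 enzymes. The share of all genes that split these fetuses in this way was not computed, so the split is not read as particular to the enzymes. The mean log2 value of the littermates was lower by 0.37 for Ehhadh (7.01 against 7.37), by 0.94 for Hsd17b4 (4.83 against 5.76) and by 1.04 for Decr2 (3.13 against 4.18). Ppara itself was 2.17 and 1.81 in the littermates and 3.05 and 3.22 in the others. Without the littermates, an alternative chosen after seeing the data, 4 enzymes were called higher and none lower with the maternal Ppara knockout. Hsd17b4 (0.78, adjusted p = 0.0145) and Eci2 (0.71, adjusted p = 0.0115) joined Ehhadh (3.64) and Acaa1b (1.99), and Decr2 was no longer called. Over all genes that fit gave 523 lower calls in place of 1483, so the loss of lower calls was not particular to the enzymes. Its higher calls over all genes were fewer than the 3117 with all libraries, while the enzymes called higher became more. They were within 1823 to 3667, the range over the alternatives before single libraries were left out. The summed hepatocyte markers were 8.337e+04 and 7.599e+04 in the littermates and 9.811e+04 and 1.051e+05 in the others, and the part of this in the difference was not tested. In KODam_KOFetus both littermates were below both other fetuses for Ehhadh and Acaa1b only, and in FloxDam_FloxFetus for none.

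**Figure D4:**
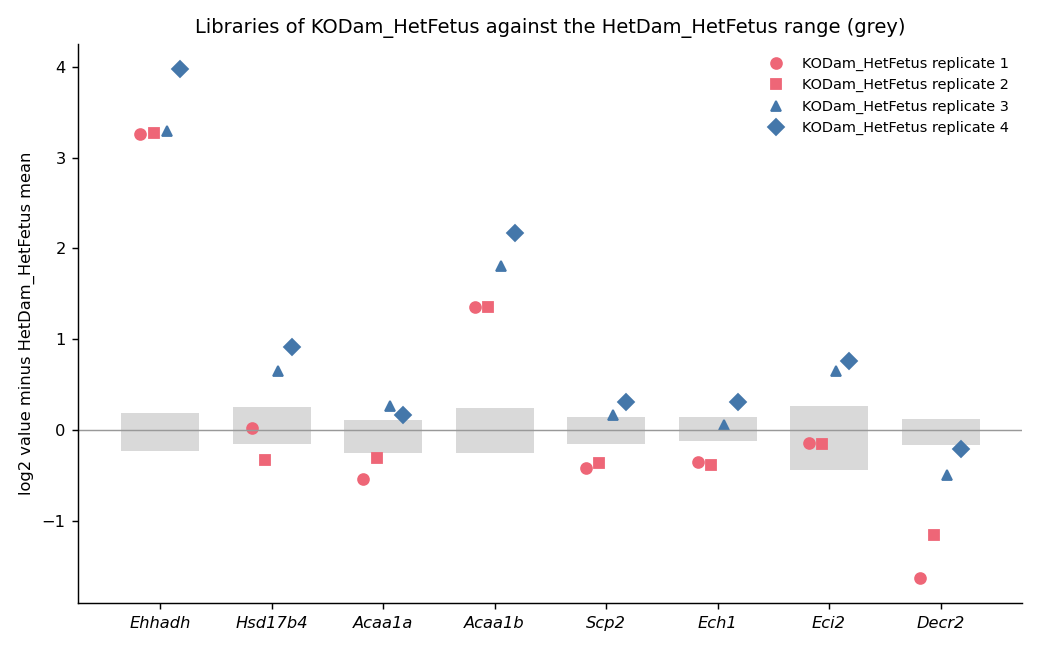
Log2 values of the 8 enzymes in the 4 KODam_HetFetus livers, each minus the HetDam_HetFetus mean, with the presumed littermates (replicates 1 and 2, red) marked apart from the others (blue) and the HetDam_HetFetus range in grey. Both littermates lie below both others for every enzyme, by a mean of 0.37 for Ehhadh and 1.04 for Decr2.

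Across the 20 libraries the log2 values of the enzymes correlated with each other in all 28 pairs, from Pearson's r of 0.36 (Ehhadh and Scp2) to 0.95 (Ech1 and Decr2), with a median of 0.80. These points share groups and litters, and are given as a description. After the group mean was taken from each value, r ran from 0.18 (Ehhadh and Decr2) to 0.82 (Ech1 and Decr2), with a median of 0.59 and no pair below 0. Of 11626 genes compared, those whose 20 values were most like the 8 enzymes on average were Slc25a20, the mitochondrial carnitine-acylcarnitine carrier (mean r 0.87), Acadvl, the mitochondrial dehydrogenase for very long acyl chains (0.87), and Etfdh, which passes electrons from such dehydrogenases to ubiquinone (0.87). For 7 of the enzymes the most like gene was Lpcat3 for Ehhadh (0.93), Acadvl for Hsd17b4 (0.97) and Ech1 (0.97), Etfb for Acaa1a (0.95), Slc25a20 for Acaa1b (0.98), Abhd3 for Scp2 (0.92) and Plin5 for Decr2 (0.98).

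Acox2, the branched-chain oxidase that also serves bile acid precursors, fell by 1.69 ± 0.30 with the maternal Ppara knockout (adjusted p = 0.000532), and its fetal difference was 0.31 (adjusted p = 0.724). Over 44 other peroxisomal genes (import, oxidases, alpha-oxidation, product handling, peroxide removal and peroxins), 41 were tested. With the maternal Ppara knockout 7 were higher and 12 lower, where 26.4% and 12.6% of all genes were. Without the presumed littermates they were 10 and 3, and over all genes there were 523 lower calls in place of 1483. The higher calls over all genes were then fewer than the 3117 with all libraries, and within 1823 to 3667, the range over the alternatives. With the fetal knockout none was higher and 7 were lower, where 0.0254% and 0.796% of all genes were, and with both losses 2 were higher and 15 lower, where 17.4% and 7.31% were. The medians were -0.02, -0.14 and -0.28, against 0.14, -0.01 and 0.14 over all genes.

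Some genes of import and assembly rose with maternal loss and fell with fetal loss, comparisons that share the KODam_HetFetus livers. Slc27a2, which activates very-long-chain acids, rose by 0.72 ± 0.17 with maternal loss (adjusted p = 0.00348) and fell by 1.98 ± 0.17 with fetal loss (adjusted p = 6.88e-07). Crot, which transfers shortened chains to carnitine for export, rose by 1.69 ± 0.30 (adjusted p = 0.000467) and fell by 1.31 ± 0.30 (adjusted p = 0.0394). The peroxins Pex16 and Pex14, which serve membrane assembly and protein import, rose by 1.18 ± 0.18 and 0.72 ± 0.13 with maternal loss and fell by 1.26 ± 0.18 and 0.89 ± 0.13 with fetal loss. Abcd3, a fatty acid transporter of the peroxisomal membrane, fell by 1.32 ± 0.18 with fetal loss (adjusted p = 0.000284). The alpha-oxidation and reductase genes Phyh, Hacl1 and Pecr instead fell with maternal loss, by 0.97 ± 0.21, 1.47 ± 0.41 and 0.71 ± 0.20, and none of these 3 was called without the presumed littermates. Of 11 mitochondrial counterparts of the 8 enzymes, 1 rose and 2 fell with maternal loss (3 rose and none fell without the littermates). With fetal loss 6 fell, and with both losses 8 fell. The shares of all genes just given are those with all libraries, and do not apply to the counts without the littermates. Without the littermates, the maternal comparison had fewer higher calls over all genes than 3117, and 523 lower calls in place of 1483. Without the 5 libraries with other-tissue markers the fetal count of mitochondrial counterparts was 2. The lower calls over all genes were then also fewer, at 62 in place of 94. Acadvl fell by 1.79 ± 0.14 and Decr1, the mitochondrial counterpart of Decr2, by 1.17 ± 0.17 with fetal loss. No gene of these lists was called with the maternal Cpt2 knockout.

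RefSeq gave a promoter window for 7 of the 8 enzymes. The direct repeat that PPAR-alpha binds with its partner RXR was searched on both strands, as AGGTCA, any base N, and AGGTCA again, in the 250 bases before each start. The best match had 4 mismatches for Ehhadh, Acaa1b, Scp2, Ech1 and Eci2 and 5 for Acaa1a and Decr2, and 74.5% of 32851 promoter windows of the same length held a match with at most 4. The single repeat AGGTCA, which lies within the longer motif, was found in the window of Scp2 only, and in 14% of all windows. A CCAAT box was present 3 times for Acaa1a, 2 times for Acaa1b and 1 time for Ehhadh and for Eci2, and in 33.8% of all windows. A GC box (GGGCGG) was present in every one of the 7 windows but that of Acaa1b, and in 32.7% of all windows, and a TATA box (TATAAA) in none of the 7 and in 12.4% of all. These are descriptions of letters in these windows and say nothing of binding.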

How the data were processed

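The labels' protocols name Trizol with a QIAGEN column for the RNA, and a stranded mRNA library kit read singly over 75 nucleotides. The submitters' processing notes name bcl2fastq 2.17.1.14, Partek 7.0 and build GRCm38.p6. How reads were aligned and counted, and whether by strand, was not given in the sources used here. The authors deposited log2 values with the same quantiles in every library, so they had been quantile normalized; base 2 was read from the values. They cannot be taken back to reads, so no count test was run, the depth is unknown and the precision it gives cannot be stated.

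Genes with a linear value of at least 1 in at least 4 libraries were tested (11807). One limma model (3.58.1, R 4.3.3, with eBayes trend; 15 residual and 4.09 prior df) held the 20 libraries with a mean for each group. Tests were two-sided, with Benjamini-Hochberg adjustment over all genes of a comparison and calls at an adjusted p under 0.05. The comparisons were maternal Ppara (KODam_HetFetus minus HetDam_HetFetus), fetal Ppara (KODam_KOFetus minus KODam_HetFetus), both (KODam_KOFetus minus HetDam_HetFetus), maternal liver Cpt2 (Cpt2LKODam_FloxFetus minus FloxDam_FloxFetus), the controls (HetDam_HetFetus minus FloxDam_FloxFetus), and the maternal Ppara minus the maternal Cpt2 difference. The fit was tested on simulated data. The enzymes, lists and alternatives were chosen with earlier results of these data known. All 8 enzymes are named, with at most 4 called genes of smallest p per list, the gene most like an enzyme and 3 most like all 8. Some of the genes so chosen are not reported here. Positions and promoters came from RefSeq, and reading frames from GENCODE, both on GRCm38.p6.

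Replicate numbers have no stated meaning. Deviations of same-numbered samples correlated over 0.1 in every pair for the control groups (0.24, 0.32, 0.26 and 0.13), which by that rule are paired in the data only, and not for the other comparisons. The highest correlations with a sample of another number were -0.01, 0.23, 0.35 and 0.08 there. For replicate 3 that was above the same-numbered value, so these values do not establish a pairing of fetuses.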

Additional observations from a re-analysis of the deposited data

Results flagged for a closer look

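A library that stood far from the other 3 of its group was found in 2 of 40 combinations of enzyme and group, where chance alone marks about 1 in 20. For Ehhadh, KODam_HetFetus replicate 4 was at 7.71, and its gap to the next library was 0.95 of the range of the group, above the critical value for 4 samples. Replicate 4 also held pancreas markers (mean log2 value 1.38). Without it the maternal Ppara difference of Ehhadh was 3.28 in place of 3.45. That was the lowest value over leaving out each library in turn, which gave 3.28 to 3.52. For Acaa1a, HetDam_HetFetus replicate 4 was at 4.78, with a gap of 0.85 of the range. This library held skeletal muscle markers (mean log2 value 2.98), and the part of these in the low value was not tested.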

How the results depend on the processing

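Of 1072 recomputed differences of single enzymes, 1011 kept their direction and call, 5 lost a call, 10 gained one and 46 changed sign, the last all of values that were not called. The alternatives were scaling, filters, pseudocounts, sex, replicate and litter blocks, the groups in the fit, and libraries left out. The causes were not tested. Without the presumed littermates of KODam_HetFetus, an alternative chosen after seeing the data, the maternal Ppara knockout gave 4 enzymes higher and 0 lower, in place of 2 and 1. For the difference of the maternal effects, 1 enzyme, Ehhadh (1.91, adjusted p = 0.0487), was called with a pseudocount of 4, and leaving out single libraries gave 0 to 1. With both losses, Scp2 was called under trimmed-mean scaling (-0.66, adjusted p = 0.0142), quantile normalization of the tested genes (-0.58, 0.0341), the replicate block (-0.55, 0.0418), without the littermates (-0.55, 0.0444) and with only the groups compared (-0.55, 0.0389). The replicate block changed no other call of an enzyme: 2 were higher and 1 lower with the maternal Ppara knockout, 7 lower with the fetal knockout, 8 lower with both losses (Scp2 added) and 0 in the control groups, the maternal Cpt2 knockout and the difference of the maternal effects.

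Changes of sign were as follows. For the maternal Ppara knockout, Acaa1a was 0.212, Scp2 0.234 and Ech1 0.182 without the littermates, and Eci2 was -0.0603 without the 5 libraries with other-tissue markers. For the maternal Cpt2 knockout, Decr2 was -0.0132 without those 5. For the difference of the maternal effects, Hsd17b4 was -0.0294 under trimmed-mean scaling and -0.166 without the 5, Scp2 was 0.0122 with litter as a block and 0.303 without the littermates, and without the littermates Ech1 was 0.107 and Eci2 0.135. For the control groups, trimmed-mean scaling gave Hsd17b4 0.0373, Ech1 0.140 and Eci2 0.0865, quantile normalization gave Ech1 0.0756 and Eci2 0.0088, and leaving out the 5 gave Ech1 0.0310 and Eci2 0.116. Leaving out single libraries, the maternal Ppara difference ran from -0.230 to 0.0364 for Acaa1a, -0.204 to 0.0348 for Scp2 and -0.229 to 0.0038 for Ech1, and the maternal Cpt2 difference from -0.203 to 0.0389 for Scp2 and -0.0418 to 0.115 for Decr2. The difference of these effects ran from -0.0903 to 0.325 for Hsd17b4 and -0.135 to 0.125 for Scp2. The control difference ran from -0.239 to 0.0011 for Hsd17b4, -0.0197 to 0.135 for Acaa1a, -0.0550 to 0.0340 for Ech1 and -0.149 to 0.0870 for Eci2.

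Over all genes, before single libraries were left out, the lower calls of the maternal Ppara knockout ran from 523 (without the littermates) to 2232 (trimmed-mean scaling), against 1483, and the higher ones from 1823 (without the libraries with other-tissue markers) to 3667 (no filter), against 3117. For the fetal knockout they ran from 61 to 110 lower, against 94, and from 0 to 9 higher, against 3, and with both losses from 1106 to 2145 higher, against 2053, and from 527 to 1385 lower, against 863. For the control groups they ran from 3 to 10 higher, against 7, and 2 to 15 lower, against 9. The difference of the maternal effects gave 0 to 2 higher and the maternal Cpt2 knockout 0 to 1 lower, against 0. Leaving out single libraries gave, for the maternal Ppara knockout, 2512 to 2925 higher and 949 (without KODam_HetFetus replicate 1) to 1629 lower. It gave 1 (without KODam_HetFetus replicate 2) to 50 (without KODam_KOFetus replicate 3) higher and 71 to 97 lower for the fetal knockout. With both losses it gave 1295 to 1926 higher and 533 to 1106 lower, the fewest of each without KODam_KOFetus replicate 4. For the difference of the maternal effects it gave 0 to 343 higher and 0 to 78 lower, the most of each without Cpt2LKODam_FloxFetus replicate 4. For the control groups it gave 5 to 7 higher and 3 (without FloxDam_FloxFetus replicate 1) to 28 (without HetDam_HetFetus replicate 1) lower, and for the maternal Cpt2 knockout 0 to 1 lower.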
